A study of Rattus norvegicus with 12 samples.

Results

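The miRNAs described here are the late-catalogued rat miRNAs, the 102 of the 727 array probes whose miRNA number is 3000 or higher, with any letter or arm. The rule that picks them uses their name alone and no measured value, but it was set with earlier results of these data known. The numbers run from 3065 to 7578, with 12 probes from 3065 to 3473, 66 from 3541 to 3596 and 24 from 6215 to 7578. They were measured in extracellular vesicles (EVs), the membrane particles that cells release into their medium, from 4 kinds of rat cells with 3 arrays each. Thy1-MC-EVs came from Thy1-positive mesenchymal cells of livers injured with d-galactosamine, which the labels call liver stem cells and which the article places with its Thy1-MCs. SH-EVs came from small hepatocytes, which are hepatocytic progenitor cells, and MH-EVs from mature hepatocytes, both of healthy livers. MSC-EVs came from bone marrow mesenchymal cells, whose preparation is not given in the sources used here. The donors were adult male F344/Nslc rats for the liver cells. The methods describe 2 days in serum-free DMEM before EV collection for the Thy1 cells, and do not say whether the other cells had the same. Per the labels, Thy1 cells and MSCs grew on plastic (the methods give collagen for the former), SHs on hyaluronic acid and MHs on type I collagen, so kind of cell, culture surface and liver injury cannot be told apart. Whether the 3 arrays of a group stem from different animals or cultures is not stated, and the p-values below cover no more than the spread among these arrays, part or all of which may be technical.

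MiRNAs are cut from hairpin precursors, each of which can give a 5p and a 3p arm, and the seed, bases 2 to 8, leads the pairing with target mRNAs. Numbers are given out in the order in which miRNAs are registered, so high numbers mark sequences that came late, many of them from small RNA sequencing. They include miRNAs read from the strand opposite a known precursor, which are reverse complements of a known miRNA, and miRNAs that lie inside protein-coding genes. Little is known of what most of them do in the liver.

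The brightness of a spot is its raw intensity, in scanner units. The authors call a probe detected when it lies above the blank spots of its array, and a stricter limit used here is the brightest of the 675 spots named No Probe. The MH arrays stood apart in their controls, with a median spike-in intensity of 5489 to 9149 against 30518 to 34391 on the other 9 arrays, and a median blank spot of 59.7 to 77.6 against 96.4 to 135. MiR-122-5p, the main miRNA of hepatocytes, was at 25724 to 48376 in MH-EVs, and at most 2343.9 in Thy1-MC-EVs, 775.5 in SH-EVs and 610.7 in MSC-EVs. The 3 hepatocyte miRNAs of the marker list (with miR-192-5p and miR-194-5p) summed to 31205 to 52471 on the MH arrays and to at most 2886, 1405 and 874 in the other groups. The 4 mesenchymal and stellate miRNAs summed to 1256 to 5262 in Thy1-MC-EVs, 1065 to 4884 in MSC-EVs, 1658 to 2481 in MH-EVs and 838 to 1364 in SH-EVs, so that Thy1 and MH overlapped. The erythroid miR-451-5p was at 1964.9 to 2416.2 in Thy1-MC-EVs and 1519.7 to 3798.4 in MSC-EVs, but at most 122.2 in SH-EVs and 80.3 in MH-EVs, where neither of the 2 erythroid miRNAs was detected on all 3 arrays. The 3 leukocyte miRNAs summed to 478 to 769 in MSC-EVs and to at most 472 elsewhere, although miR-142-3p of this list was detected on no MSC array. All these sums include the background of each spot, and the part of blood or other cells in the results below was not tested.

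Most late-catalogued miRNAs did not exceed the brightest spot without a probe on any array. Of the 102, 67 (65.7%) lay above the brightest No Probe spot on none of the 12 arrays, 31 on 1 to 11 arrays and 4 (3.92%) on all 12. Among the other 625 probes 371 (59.4%) were above it on none and 25 on all 12. On the Thy1 arrays 4, 20 and 22 of the 102 passed this limit, on the SH arrays 14, 20 and 10, on the MH arrays 31, 35 and 28, and on the MSC arrays 5, 13 and 4. The MH arrays thus held the highest counts, and the MSC arrays included the lowest together with the first Thy1 array. The mean share was 15.0% ± 9.67 in Thy1-MC-EVs, 14.4% ± 4.93 in SH-EVs, 30.7% ± 3.44 in MH-EVs and 7.19% ± 4.84 in MSC-EVs (SD, n = 3 arrays). The other probes gave 16.3% ± 10.4, 18.2% ± 5.20, 33.2% ± 3.56 and 12.8% ± 8.21 in the same order. The limit itself was lower on the MH arrays, at 84.0 to 133.6, than on the others, at 197.9 to 595.2, and the part of this gap in the higher MH share was not tested.

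The limit on 3 arrays was set by a spot that the authors flagged. Without flagged spots it fell from 595.2 to 164.7 on Thy1 replicate 1, from 197.9 to 186.5 on SH replicate 1 and from 354.0 to 178.2 on SH replicate 3. The counts on these arrays then rose from 4 to 14, from 14 to 18 and from 10 to 22, and the mean shares became 18.3% ± 4.08 in Thy1-MC-EVs and 19.6% ± 1.96 in SH-EVs. The other probes rose as well, to 20.4% ± 3.46 and 22.6% ± 3.75. The 4 miRNAs above the limit on all 12 arrays stayed at 4.

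**Figure D1:**
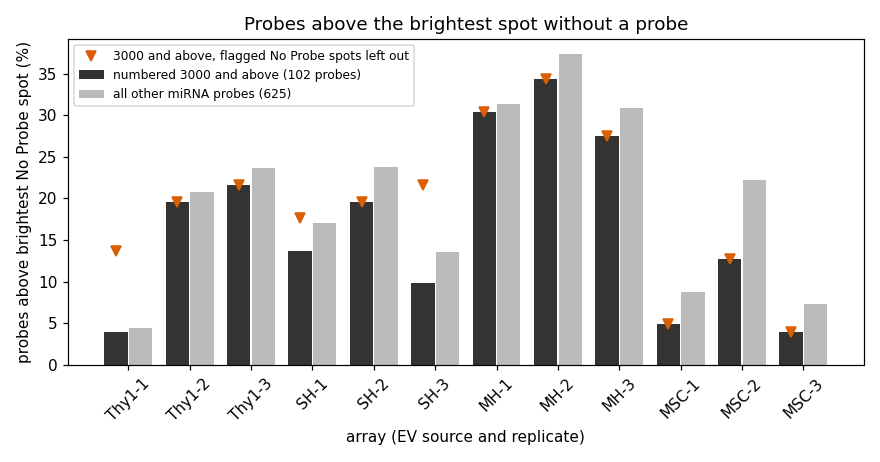
Percent of probes above the brightest No Probe spot on each of the 12 arrays (x axis), for the 102 miRNAs numbered 3000 and above (dark bars) and the other 625 probes (light bars), with triangles for the former when flagged No Probe spots are left out. Dark bars are highest on the 3 MH arrays, at 27.5% to 34.3%, and triangles rise above the bars on Thy1 replicate 1, SH replicate 1 and SH replicate 3.

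The 4 miRNAs bright on all 12 arrays were miR-3473, miR-6332, miR-3593-3p and miR-3584-5p. Of the 102 names, 92 have a mature sequence in the RefSeq table used here (assembly GRCr8), and these 4 are shown because they were the only ones above the limit in every EV sample. Capitals mark the seed.
miR-3473: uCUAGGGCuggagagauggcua
miR-6332: cGCAGGGAcugcaaggagccgca
miR-3593-3p: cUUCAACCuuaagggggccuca
miR-3584-5p: gGGAGGAGuccaggaggc
None of their seeds is shared with another miRNA of the array that has a sequence in the table. MiR-3473 lies at chr13:42051730-42051751 on the plus strand, inside the span of Zranb3, a gene for a DNA remodelling enzyme of stalled replication forks, and opposite to its direction. MiR-6332 lies at chr5:166120278-166120300 on the plus strand within Rere, which encodes a transcriptional corepressor, in the same direction. MiR-3584-5p lies at chr1:256727582-256727599 on the minus strand within Itprip, a gene for an inositol trisphosphate receptor-interacting protein, in the same direction. MiR-3593-3p lies at chr6:78987770-78987791 on the minus strand, in no protein-coding gene of the table. The table gives gene spans and no exons, so exon or intron was not determined.

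MiR-3473 holds a stretch that resembles the start of the rodent B2 repeat, a short element spread over the genome. Stretches of 16 bases of its printed sequence, read on either strand, occurred in 95 of 33469 promoter windows of RefSeq (0.284%), which reach from 250 bases before to 50 after a gene's start. Of the other 91 late-catalogued miRNAs with a sequence, none had such a stretch in more than 4 windows, and 85 had it in none. No other miRNA of the array was found in more than 10.

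In raw intensity, miR-3473 was at 7324.6, 5752.2 and 19976.6 on the Thy1 arrays, 2521.3, 3236.5 and 2053.3 on the SH arrays, 7392.3, 3715.2 and 2316.5 on the MH arrays and 3887.2, 16343.7 and 5737.2 on the MSC arrays. It was at least 5.80 times the brightest No Probe spot of its array. The SH arrays were low and close together, and each of the other groups spanned a wide range. MiR-6332 was at 5484.8, 9261.8 and 12701.9 for Thy1, 2707.2, 3682.1 and 2963.0 for SH, 15538.8, 13860.7 and 10219.6 for MH and 4611.3, 4959.9 and 3896.0 for MSC. Its 3 SH values lay below all others in raw intensity, and it stayed at least 8.37 times above the limit. MiR-3593-3p ranged from 674.5 on MSC replicate 3 to 5548.5 on Thy1 replicate 3, and miR-3584-5p from 521.5 on MSC replicate 1 to 3932.9 on MH replicate 1. Both came nearest to the limit on MSC replicate 3, at 2.14 and 1.73 times.

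**Figure D2:**
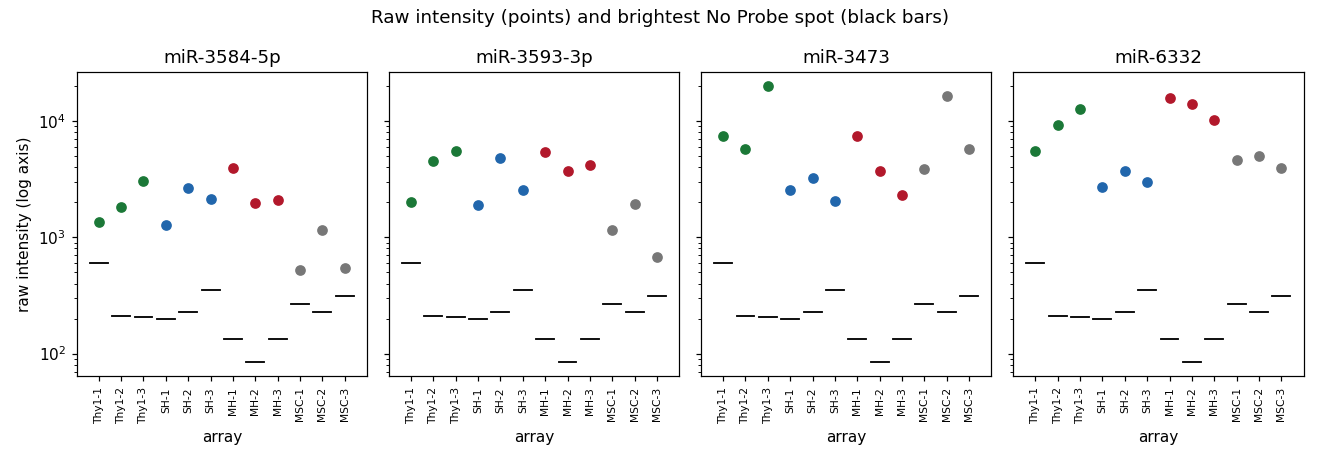
Raw intensity on a log axis of the 4 miRNAs above the brightest No Probe spot on all 12 arrays, 1 point per array coloured by EV source, with black bars at the brightest No Probe spot of each array. All points lie above the bar of their array, from 1.73 times for miR-3584-5p upwards.

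Many late-catalogued miRNAs were opposite-strand miRNAs. By position in GRCr8, 33 of the 92 lay opposite another mature miRNA with an exactly complementary run of 16 to 22 bases (median 21.0). Their partners included let-7a, let-7d, let-7e and let-7f (miR-3596a, miR-3596b, miR-3596c and miR-3596d), miR-122-5p (miR-3591), miR-125b-5p (miR-3588), the miR-29 family (miR-3556a, miR-3587 and miR-3556b), miR-24-1-5p (miR-3074) and miR-338 (both arms of miR-3065). A further miRNA, miR-3120, overlapped miR-214-5p of the other strand by 1 base. On chromosome 6, 7 of them lay opposite miRNAs such as miR-337-5p and miR-382-3p. Of the 33, 4 pairs are shown. In the first 2 the partner passed the No Probe limit on 9 and 8 arrays and the late-catalogued miRNA on none. In the last 2 the late-catalogued miRNA differed between EVs in 3 of the comparisons below. MiR-3596c, of the first 2, did so in 1. Capitals mark the complementary run, and each miRNA is written 5′ to 3′.
miR-3591: AACACCAUUGUCACACUCCA
miR-122-5p: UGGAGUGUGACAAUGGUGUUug
miR-3596c: ACUAUACAACCUCCUACCUCA
let-7e-5p: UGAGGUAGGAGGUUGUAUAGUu
miR-3065-3p: UCAGCACCAGGAUAUUGUUgggga
miR-338-5p: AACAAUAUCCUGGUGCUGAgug
miR-3560: CAAAUCCUUGCCCGGGUGCAUU
miR-501-3p: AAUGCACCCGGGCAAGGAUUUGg
MiR-3591 lies at chr18:61028831-61028850, miR-3596c at chr1:67350243-67350263, miR-3065-3p at chr10:105796384-105796407 inside Aatk, a gene for an apoptosis-associated kinase, and miR-3560 at chrX:17927239-17927260 inside Clcn5, a gene for a chloride and proton exchanger, the last 2 opposite to the direction of the gene.

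The opposite-strand miRNAs were mostly dim. Only 4 of the 33 (12.1%), namely miR-3065-3p, miR-3544, miR-3546 and miR-3560, passed the No Probe limit on any array, against 27 of the 59 other late-catalogued miRNAs with a sequence (45.8%). Of the 32 partners that the array carries, 18 passed it on at least 1 array, and miR-29a-3p, miR-125b-5p and miR-505-3p on all 12. MiR-3591 was at 93.8, 66.8 and 90.6 on the MH arrays, below the limit of each, where its partner miR-122-5p was at 44091, 48376 and 25724. MiR-3588 stayed between 62.1 and 128.4 on all arrays, while miR-125b-5p ran from 271.2 to 2397.5. The 4 let-7 partners passed the limit on 6 to 11 arrays, and miR-3596a, miR-3596b, miR-3596c and miR-3596d on none. MiR-3074 was at 63.0 to 175.9 and passed it nowhere, with its partner miR-24-1-5p above it on 1 array. The 7 on chromosome 6 were above it on no array except miR-3544, which was above it on 4.

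MiR-3065-3p and miR-3544 were the reverse case. The partner of miR-3065-3p, miR-338-5p, lay between 63.0 and 128.4 and above the limit on no array, whereas miR-3065-3p passed it on 9. The other arm, miR-3065-5p, and its partner miR-338-3p passed it on none.

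**Figure D3:**
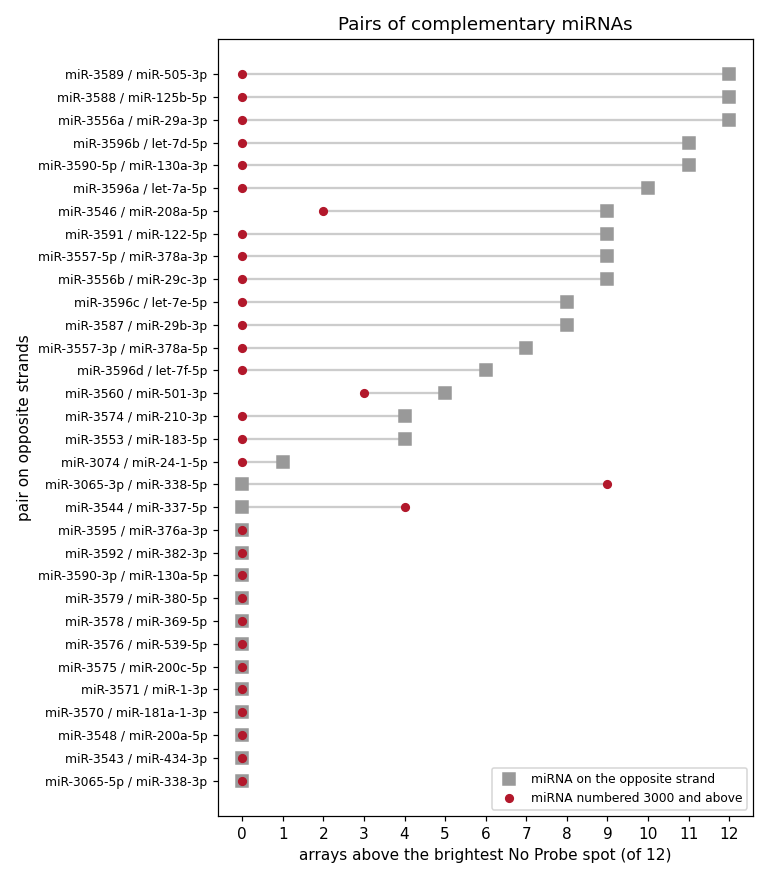
Number of arrays (of 12, x axis) above the brightest No Probe spot for 32 late-catalogued miRNAs (circles) and the array miRNA on the opposite strand of each (squares), 1 pair per line. The circle lies at 0 in all but 4 pairs, and to the right of the square only for miR-3065-3p (9 against 0) and miR-3544 (4 against 0).

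Bases also differed with brightness. The share of G and C had a median of 62.0% in the 4 miRNAs bright everywhere, 60.9% in the 27 above the limit on 1 to 11 arrays and 45.8% in the 61 above it on none. Across the 92, Spearman's rho of this share with the mean normalized level was 0.72, and across 561 other array miRNAs it was 0.48. The share of G alone gave 0.14 and 0.23. These are descriptions across probes of the same arrays, which share hybridization and base composition, and are not replicates.

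**Figure D4:**
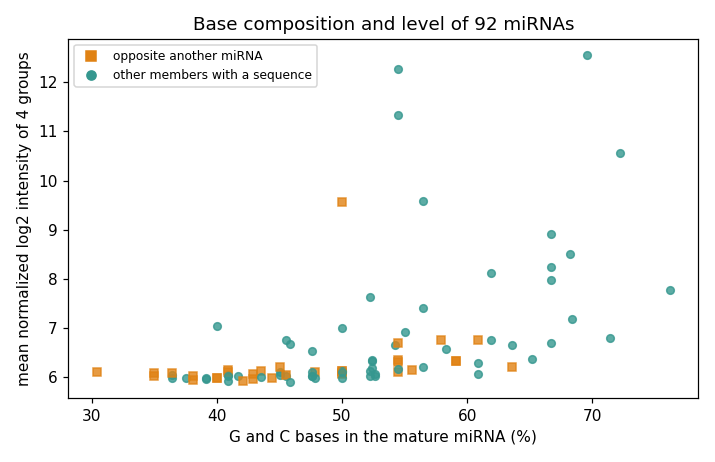
Mean normalized log2 intensity of the 4 groups (y axis) against the percent of G and C bases (x axis) for 92 late-catalogued miRNAs, with squares for the 33 opposite another miRNA. Levels rise with the share of G and C (Spearman's rho 0.72), and of the squares only that of miR-3065-3p lies clearly above the rest.

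For the comparisons between EVs, raw intensity was freed of background by means of the blank spots, quantile-normalized and put on the log2 scale, and limma was run on the 386 probes that some group showed above the authors' detection limit on its 3 arrays, with p-values adjusted over the 386. Of the late-catalogued miRNAs, 51 were among these and 51 were not, so the counts below leave out the dimmer members, and a member may be among the 51 through its brighter group alone. A moderated F-test over the 4 groups called 22 of the 51 (43.1%), beside 51.3% of all tested probes. Every difference is relative to the other probes of the array. The scale matters for MH: over all tested probes the median log2 difference of Thy1 against MH, SH against MH and MSC against MH was -0.05, -0.05 and -0.12 here, 0.64, 0.49 and 0.94 after scaling to the median of the common probes, -1.40, -1.42 and -1.93 in the authors' normalized intensities, and -2.20, -2.24 and -2.59 after scaling by the spike-in spots. In the comparisons without MH the medians of these 4 scalings stayed between -0.38 and 0.43. All called differences that turned sign with a scaling, as given below, kept it under that scaling relative to the shifted median of all tested probes.

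Thy1-MC-EVs and SH-EVs differed in 1 of the 51. MiR-3594-5p was lower in Thy1-MC-EVs and no late-catalogued miRNA was higher, beside 6.99% of all tested probes called higher and 7.51% lower. At an unadjusted p under 0.05 in limma 10 passed in either direction, and the methods' t-test called 1 after adjustment. The shares of all tested probes that go with those counts are not given. MiR-3594 lies on the minus strand within Cep131, a gene for a centrosomal protein, in the same direction, with the 5p arm at chr10:105845867-105845887 and the 3p arm at chr10:105845832-105845853. Both arms are shown with their seed in capitals, since each was called in 3 or more comparisons, not always the same ones.
miR-3594-5p: cCCAGGGCagagcagugugaa
miR-3594-3p: cACACCGCcucugcccgcuagu
The log2 level of miR-3594-5p was 7.93, 7.61 and 7.86 on the Thy1 arrays, 8.91, 9.29 and 9.07 on the SH arrays, 7.86, 7.85 and 7.74 on the MH arrays and 8.08, 7.21 and 8.04 on the MSC arrays. All SH arrays lay above all 9 others. The difference of Thy1 against SH was -1.29 (standard error 0.21, adjusted p = 0.00247 in limma), that is 2.45-fold higher in SH-EVs. It kept its sign under every alternative run, from -1.68 to -1.17, and missed the threshold with spike-in scaling (adjusted p = 0.173). Leaving out any 1 array gave -1.38 to -1.19, and without SH replicate 1 the count of 1 became 3. Median scaling and the authors' values each gave 2 higher and 1 lower, and spike-in scaling 1 higher and none lower. Of all tested probes, 6.74%, 10.1% and 1.55% were then called in either direction.

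SH-EVs also exceeded MH-EVs in miR-3594-5p, by 1.28 (standard error 0.21, adjusted p = 0.000979 in limma), a sign that turned to -1.31 with spike-in scaling and -0.12 in the authors' values, and lower in MSC-EVs than in SH-EVs, at -1.31 (adjusted p = 0.000961 in limma). The 3p arm was at 9.29, 8.82 and 8.61 for Thy1, 9.25, 9.14 and 9.51 for SH, 7.66, 7.61 and 7.81 for MH and 8.38, 7.62 and 8.32 for MSC. Thy1 and SH overlapped in this arm and both lay above MH. Thy1 against MH was 1.21 (standard error 0.22, adjusted p = 0.00220 in limma), SH against MH 1.61 (adjusted p = 0.000324 in limma) and MSC against SH -1.19 (adjusted p = 0.00226 in limma). The first 2 turned to -1.53 and -1.06 with spike-in scaling, and the first to -0.34 in the authors' values, where the second was 0.20.

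Between Thy1-MC-EVs and MH-EVs, Thy1-MC-EVs had 5 of the 51 higher and 8 lower (9.80% and 15.7%), beside 14.5% and 15.5% of all tested probes. Without Thy1 replicate 1, Thy1 replicate 3 or MH replicate 2 the 13 became 8, 8 and 7. The split was 9 higher and 2 lower after median scaling, 0 and 29 in the authors' values and 0 and 50 with spike-in scaling. Of all tested probes, 31.3%, 58.5% and 94.0% were then called in either direction. MiR-3065-3p had the largest of the 13 differences. Its log2 level was 12.40, 12.40 and 10.42 on the MH arrays, 9.33, 9.18 and 9.48 for Thy1, 8.28, 8.61 and 8.66 for SH and 8.87, 8.31 and 8.71 for MSC. All MH arrays were above all others, although MH replicate 3 was well below the other two. Thy1 against MH was -2.41 (standard error 0.43, adjusted p = 0.00200 in limma), 5.32-fold higher in MH-EVs, and SH against MH -3.22 (adjusted p = 0.000276 in limma) and MSC against MH -3.11 (adjusted p = 0.000269 in limma), which are 9.33-fold and 8.61-fold. Without MH replicate 3 they were -3.07, -3.88 and -3.77, and without any other single array they ranged from -2.49 to -2.08, from -3.30 to -2.89 and from -3.23 to -2.78, all past the threshold. Under the alternatives these ranged from -5.16 to -2.32, from -5.83 to -3.07 and from -6.62 to -2.97, all with the same sign, and the first missed the threshold in 1 of them, the methods' t-test after adjustment (adjusted p = 0.0867). The raw intensity gave the same order, with 3018.4 to 8005.1 on the MH arrays and at most 1152.4 elsewhere.

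MiR-3549 was one of the 5 higher in Thy1-MC-EVs. It lies opposite miR-193a-5p, which the array does not carry. Its level was 7.28, 7.16 and 7.06 for Thy1, 6.99, 6.70 and 6.85 for SH, 6.29, 6.26 and 6.27 for MH and 6.62, 6.49 and 7.0 for MSC. The Thy1, SH and MH arrays formed a descending order without overlap, and the MSC arrays overlapped with SH. Thy1 against MH was 0.90 (standard error 0.14, adjusted p = 0.000943 in limma) and SH against MH 0.58 (adjusted p = 0.00949 in limma), which turned to -1.17 and -1.45 with spike-in scaling. On no array was it above the No Probe limit. MiR-3584-3p, the dimmer arm of a miRNA bright everywhere, was higher by 0.55 (adjusted p = 0.0119 in limma), which turned to -1.76 with spike-in scaling and -0.62 in the authors' values.

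MiR-3560 was among the 8 lower in Thy1-MC-EVs. Its level was 6.51, 6.54 and 6.30 for Thy1, 6.86, 6.65 and 6.60 for SH, 7.34, 7.29 and 7.23 for MH and 6.25, 6.12 and 6.64 for MSC, with all MH arrays above the rest. Thy1 against MH was -0.84 (standard error 0.15, adjusted p = 0.00172 in limma), SH against MH -0.58 (adjusted p = 0.0101 in limma) and MSC against MH -0.95 (adjusted p = 0.000486 in limma). After median scaling none of the 3 passed, at -0.37 (adjusted p = 0.421), -0.25 (adjusted p = 0.628) and 0.02 (adjusted p = 0.968), and with plain subtraction the first 2 did not (adjusted p = 0.110 and 0.373). Its partner miR-501-3p was detected on all 12 arrays and passed the No Probe limit on 5. MiR-7578, which lies within Brd3, a gene for a chromatin reader, was detected on the 3 MH arrays only and was at least 1.42-fold higher in MH-EVs than in Thy1-MC-EVs (adjusted p = 0.00674 in limma) and at least 1.5-fold higher than in SH-EVs (adjusted p = 0.00570 in limma). After median scaling both calls were lost, with differences of -0.34 and -0.52 (adjusted p = 0.478 and 0.295 in limma). Both were also lost with the methods' t-test after adjustment. The raw intensity of miR-7578 was 273.7, 132.2 and 105.3 on the MH arrays and 88.8 to 146.5 on the others. Only MH replicate 1 thus lay above all of the others, and the blank spots were dimmer on the MH arrays. The No Probe limit was passed on 2 MH arrays. MiR-3562 was lower in Thy1-MC-EVs by a difference of -0.51 (adjusted p = 0.0145 in limma), which turned to 0.05 after median scaling. Calls of 3 miRNAs did not hold when single arrays were left out. MiR-6317 (0.28) and miR-3577 (0.37) each lost the call without 5 of the 6 arrays in turn, with 0.25 to 0.32 and 0.32 to 0.47. MiR-3569 (-0.55) lost it without 4, with -0.70 to -0.44. The first 2 turned to -1.71 and -1.95 with spike-in scaling and to -0.05 and -1.01 in the authors' values. With the replicate number as a block, miR-6317 and miR-3577 also missed the threshold (adjusted p = 0.0532 and 0.0574 in limma).

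Between SH-EVs and MH-EVs, 8 of the 51 were higher and 10 lower in SH-EVs (15.7% and 19.6%), beside 15.0% and 17.6% of all tested probes. Without SH replicate 2, MH replicate 1 or MH replicate 2 the 18 became 11, 10 and 11. The split was 9 higher and 7 lower after median scaling, 0 and 31 in the authors' values and 0 and 51 with spike-in scaling. Of all tested probes, 29.3%, 60.1% and 93.0% were then called in either direction. Besides those above, miR-3068-5p, from a precursor within Alkbh1, a gene for a nucleic acid demethylase, was at 7.11, 7.69 and 7.71 for SH, 6.48, 6.74 and 6.41 for MH, 6.63, 7.03 and 7.15 for Thy1 and 7.19, 7.20 and 7.20 for MSC. SH lay above MH without overlap by 0.96 (standard error 0.19, adjusted p = 0.00264 in limma), a sign that turned to -1.11 with spike-in scaling. MiR-3577 was higher in SH-EVs by 0.48 (adjusted p = 0.0127 in limma), which turned to -1.80 with spike-in scaling and -0.65 in the authors' values. MiR-6328, within the span of Ppp1r18 and opposite to its direction, was lower in SH-EVs, with 7.61, 7.34 and 7.23 against 8.55, 8.55 and 8.14 in MH-EVs. All MH arrays were above all SH arrays, and the difference was -1.02 (adjusted p = 0.00113 in limma). MiR-3558-5p, from a precursor within Ttc7a, was lower in SH-EVs by a difference of -0.76 (adjusted p = 0.00145 in limma), a call lost after median scaling (-0.32, adjusted p = 0.495).

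Several late-catalogued miRNAs were lower in MSC-EVs. Thy1-MC-EVs had 11 of the 51 higher than MSC-EVs and none lower (21.6% and 0.00%), beside 13.0% of all tested probes higher and 10.6% lower. At an unadjusted p under 0.05 in limma 15 passed in either direction, a count for which the share of all tested probes is not given. No member was called lower under the other background corrections, scalings and filters or with a replicate block. But the 11 became 2 after median scaling, 5 with spike-in scaling and 6 with the filter at the No Probe limit. Of all tested probes, 9.84%, 8.55% and 28.2% were then called in either direction. The 11 became 3 with the methods' t-test after adjustment, and 4, 6 and 7 without Thy1 replicate 2, MSC replicate 2 and MSC replicate 3. MiR-3577 was at 7.21, 7.48 and 7.50 for Thy1, 7.65, 7.40 and 7.47 for SH, 7.02, 7.13 and 6.92 for MH and 6.55, 6.73 and 6.49 for MSC. The MSC arrays were below all others. Thy1 against MSC was 0.81 (standard error 0.13, adjusted p = 0.00114 in limma) and MSC against SH -0.92 (adjusted p = 0.000256 in limma). Median scaling ended both calls (0.34, adjusted p = 0.448, and -0.38, adjusted p = 0.377), and spike-in scaling the first (1.03, adjusted p = 0.0709). MiR-3584-3p was higher by 0.65 (adjusted p = 0.00701 in limma), a call lost after median scaling (0.28, adjusted p = 0.560). MiR-3558-5p, detected on no MSC array, was at least 1.05-fold higher (adjusted p = 0.00756 in limma), with a difference of -0.04 after median scaling. MiR-6317 was detected on no MSC array and on 2 Thy1 arrays. On no array was it above the No Probe limit, with raw intensities of 65.9 to 154.8. No fold of the at least kind could be given for it. Its difference was 0.44 (adjusted p = 0.00546 in limma), which turned to -0.17 after median scaling. It was 0.21 in the authors' values (adjusted p = 0.829), or -0.02 relative to the median of all tested probes. MiR-3085 lost its call (0.84, adjusted p = 0.0144 in limma) without Thy1 replicate 2 (0.75), MSC replicate 2 (0.74) or MSC replicate 3 (0.78).

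Against SH-EVs, 2 of the 51 were higher and 7 lower in MSC-EVs (3.92% and 13.7%), beside 12.2% and 15.5% of all tested probes, and the higher ones were miR-3473 and miR-6332. The split was 2 and 2 after median scaling, 1 and 10 in the authors' values and 0 and 6 with spike-in scaling. Of all tested probes, 16.6%, 29.0% and 12.2% were then called in either direction. The normalized level of miR-3473 was 13.23, 14.29 and 14.29 for MSC, 13.23, 12.07 and 13.23 for Thy1, 12.17, 10.76 and 10.53 for SH and 12.07, 11.53 and 9.82 for MH. MSC overlapped with neither SH nor MH, and Thy1 overlapped with both. MSC against SH was 2.79 (standard error 0.62, adjusted p = 0.00600 in limma) and MSC against MH 2.80 (adjusted p = 0.00470 in limma). The first was 1.47 with spike-in scaling (adjusted p = 0.107 in limma). The second turned to -1.32 there and was 0.09 in the authors' values. The methods' t-test called neither after adjustment. The study had chosen miR-3473 on these arrays for an excess in Thy1-MC-EVs over SH-EVs and MH-EVs, so its level in Thy1-MC-EVs is no independent evidence. By qRT-PCR the paper did not name miR-3473 among the selected miRNAs that were relatively higher in Thy1-MC-EVs, and it followed only those further. Thy1 against SH was 1.69 (standard error 0.62, adjusted p = 0.0967 in limma), which passed after median scaling (2.09, adjusted p = 0.00252) and in the authors' values (2.02, adjusted p = 0.0279). Thy1 against MH was 1.70 (adjusted p = 0.0587 in limma), with 2.03 after median scaling (adjusted p = 0.00116) and -0.81 with spike-in scaling (adjusted p = 0.219). Thy1 against MSC was -1.10 (adjusted p = 0.234 in limma), with 0.25 in the authors' values and 0.51 with spike-in scaling. SH against MH was 0.01 (adjusted p = 0.987 in limma), with -1.68 in the authors' values and -2.80 with spike-in scaling. The level of miR-6332 was 13.98, 12.17 and 13.45 for MSC and 12.40, 10.90 and 11.33 for SH, with overlap between the groups. The difference was 1.66 (standard error 0.48, adjusted p = 0.0267 in limma), and the call was lost without MSC replicate 1 (1.27), MSC replicate 3 (1.53), SH replicate 2 (1.33) or SH replicate 3 (1.55). It was also lost in the authors' values (0.80, adjusted p = 0.258 in limma) and with spike-in scaling (0.52, adjusted p = 0.301). In raw intensity the SH arrays were below the MSC arrays without overlap. The lower ones included miR-3562, detected on no MSC array and at least 1.11-fold higher in SH-EVs (adjusted p = 0.00490 in limma). Another was miR-6317 at -0.47 (adjusted p = 0.00235 in limma), also detected on no MSC array and nowhere above the No Probe limit. The differences turned to 0.11 and 0.25 after median scaling.

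Against MH-EVs, 4 of the 51 were higher and 17 lower in MSC-EVs (7.84% and 33.3%), beside 14.8% and 20.7% of all tested probes. The median difference over the 51 was -0.28, beside -0.12 over all 386. The split was 26 higher and 6 lower after median scaling, 0 and 33 in the authors' values and 0 and 50 with spike-in scaling. Of all tested probes, 65.5%, 68.1% and 96.6% were then called in either direction. Without MH replicate 1 or MH replicate 2 the 21 became 10 and 12. MiR-3085 was at 7.92, 7.37 and 7.45 for MSC and 9.18, 8.76 and 8.50 for MH, with a difference of -1.23 (standard error 0.21, adjusted p = 0.000946 in limma). MiR-6328 was at -1.03 (adjusted p = 0.000946 in limma), and miR-3558-5p was at least 1.42-fold higher in MH-EVs (adjusted p = 0.000139 in limma), with a difference of 0.05 after median scaling. Besides miR-3473, the higher ones were miR-3068-5p (0.66), miR-6215 (0.92, with overlap between the groups) and miR-3549 (0.43). They turned to -1.90, -1.82 and -1.91 with spike-in scaling and to -0.63, -0.38 and -0.32 in the authors' values. They lost the call without 2 (0.59 to 0.76 over all 6), 5 (0.66 to 1.33) and 4 (0.28 to 0.54) of the 6 arrays in turn.

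**Figure D5:**
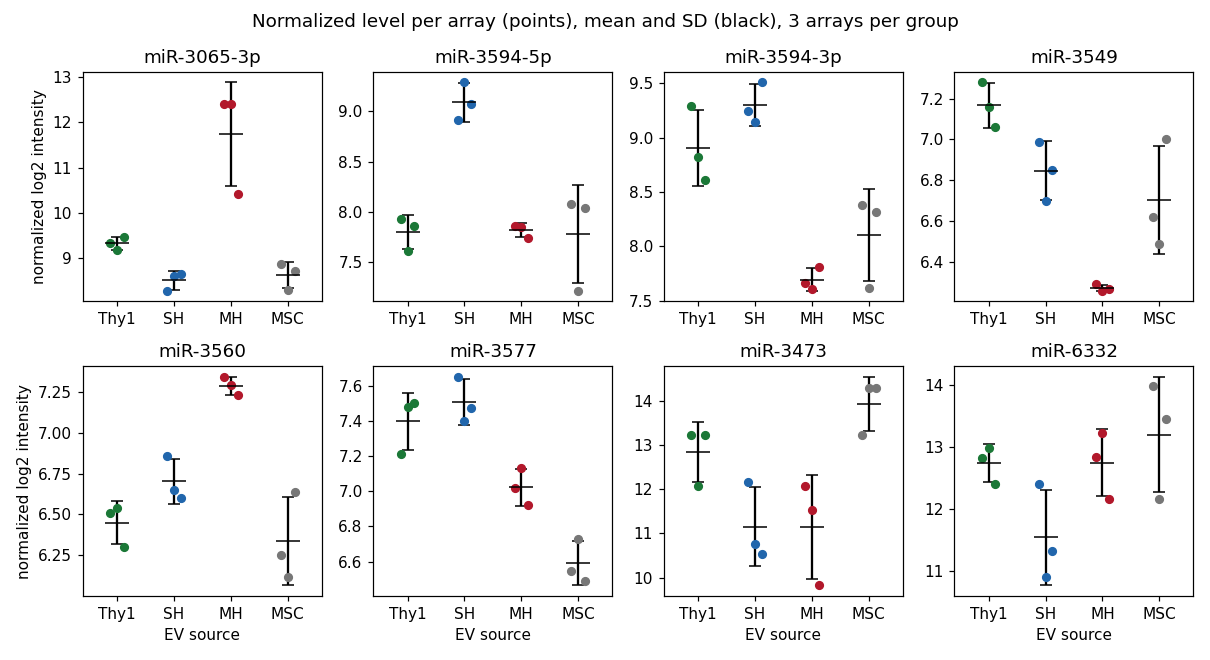
Normalized log2 intensity of 8 late-catalogued miRNAs in EVs of 4 sources (x axis), 1 point per array, with the mean and SD in black (n = 3 arrays). MiR-3065-3p and miR-3560 are highest in MH and miR-3594-5p in SH, while miR-3577 is lowest in MSC, all 4 without overlap with the other groups.

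Above the No Probe limit on all 3 arrays of 1 group and on none of the others were 8 miRNAs, all for MH. The lower limit of the MH arrays bears on this directly. The same count was not made for the other 625 probes, so the 8 are not read as a trait of these miRNAs. On exactly 3 arrays, of whatever groups, 9 of the 102 and 34 of the other 625 were above the limit. MiR-3560 was the only one of the 8 whose MH arrays, at 170.8 to 246.5 in raw intensity, all lay above the highest other array, at 163.4. MiR-3558-5p and miR-3569 did so on 2 of 3 arrays and miR-3562 and miR-3075 on 1. MiR-3550, miR-3572 and miR-6334 did so on none, with highest values of 182.0, 217.0 and 176.8 outside MH against 166.5, 213.7 and 170.7 in MH.

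Of 16 precursors with both arms on the array, 9 had neither arm above the No Probe limit on any array, 4 had both and 3 had 1. The arms differ as probes, so only their change between groups is read. For miR-3594 the 5p level minus the 3p level was -1.11 in Thy1-MC-EVs, -0.21 in SH-EVs, 0.12 in MH-EVs and -0.33 in MSC-EVs. For miR-3584 it was 3.35, 3.36, 3.51 and 3.35, nearly the same in all 4. The difference between groups in these values was not tested. The names miR-3568, miR-3577, miR-3586-5p, miR-3586-3p, miR-3593-5p, miR-6318, miR-6320, miR-6323, miR-3072 and miR-6334 have no sequence shown or used here.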

How the data were processed

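EV miRNA was labelled with Cy3 and hybridized to 12 rat miRNA arrays (3D-Gene, probes of miRBase release 20). Per the file headers, 3 forms of intensity were deposited for each spot, namely raw, background-subtracted and globally normalized, with a flag. The values show that the authors took as background the trimmed mean of 1504 blank spots (5% off either end). Scanner, image software, slide and scan: not given in the sources used here. Samples were grouped by their titles. Raw intensity was corrected with normexp against the blank spots (offset 50), quantile-normalized and fitted in limma 3.58.1 (R 4.3.3) with 1 mean per group and moderated variances. Adjustment was by Benjamini-Hochberg over 386 probes, with a threshold of 0.05. Flagged probe values (2) were left out. Precision is limited by the number of arrays, with a median standard error of 0.16 over the 51 miRNAs tested. A fold written as at least is set against the lowest detected level of arrays that did not detect the miRNA. Sequences and positions are from RefSeq (GRCr8). The fit was tested on simulated data.

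The members and lists were chosen with earlier results of these data known. Named were the members bright on all 12 arrays, up to 5 per direction with the smallest adjusted p in each of the 6 comparisons, those above the No Probe limit in 1 group only, miR-3473 and those opposite a listed miRNA. Further names stand for classes and were picked with the values in view. Alternatives included other background corrections, scalings, filters and limits, fewer arrays, a replicate block and the methods' t-test. The limit without flagged No Probe spots was added after seeing the data. By the check of replicate numbers, all 3 same-numbered pairs deviated together only for Thy1 against MH (correlations 0.20 to 0.32), although the sources do not tell what a number marks.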

Additional observations from a re-analysis of the deposited data

How the results depend on the processing

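Of 46 named differences, each recomputed under the alternatives, 771 values were obtained, of which 639 kept their sign and side of the threshold, 93 kept only the sign, 7 newly passed and 32 turned sign. The cause was not tested.

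With spike-in scaling the count of called members became 50 (Thy1 against MH), 51 (SH against MH), 5 (Thy1 against MSC), 50 (MSC against MH) and 51 (F-test). In the authors' normalized intensities it was 3 (Thy1 against SH), 29, 31, 33 (MSC against MH) and 34 (F-test). Median scaling gave 3 (Thy1 against SH), 2 (Thy1 against MSC), 4 (MSC against SH) and 32 (MSC against MH), and plain subtraction 14 (MSC against SH). The filter at the No Probe limit gave 6 (Thy1 against MSC) and 13 (MSC against MH), fits of 2 groups only 2 (Thy1 against SH) and 13 (MSC against MH). The shares of all tested probes called under the other scalings stand with the comparisons above. They are not given for the F-test under these alternatives, for the fits of 2 groups only or for the methods' t-test. In those runs, here and above, a change in the count of members cannot be told from a change in all tested probes. With plain subtraction the share was 28.5% (MSC against SH), and with the filter at the No Probe limit 49.3% (MSC against MH). The methods' t-test gave 7 unadjusted for Thy1 against SH, and after adjustment 7 (Thy1 against MH), 10 (SH against MH), 3 (Thy1 against MSC) and 2 (MSC against SH).

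Leaving out 1 array gave 1 to 3 (Thy1 against SH), 7 to 13 (Thy1 against MH), 10 to 19 (SH against MH), 4 to 10 (Thy1 against MSC), 7 to 10 (MSC against SH), 10 to 23 (MSC against MH) and 18 to 24 (F-test). The shares above the No Probe limit were then 11.8% to 20.6% (Thy1), 11.8% to 16.7% (SH), 28.9% to 32.4% (MH) and 4.41% to 8.82% (MSC), and 4 members stayed above it on all arrays. For the other probes these ranges are not given, and neither are the shares of all tested probes called with an array left out. The changes in the counts of members with an array left out, here and above, thus cannot be told from changes in all tested probes.

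The shares were 36.9%, 34.6%, 62.7% and 24.2% (Thy1, SH, MH, MSC) at the authors' detection limit, with 17 members above it on all 12 arrays. On single arrays the other 625 probes were there at 31.8% to 49.4%, 38.4% to 46.7%, 58.6% to 72.3% and 24.8% to 37.0%, in the same order. The shares of the members were 25.8%, 28.1%, 41.5% and 14.4% at the 95th percentile of the No Probe spots, with 12 members above it on all arrays. At 1.5 times the limit SH was at 9.15% and MH at 20.9%, and without flagged spots SH was at 19.6%, beside 22.6% of the other probes. For the other probes the shares at the 95th percentile and at 1.5 times the limit are not given.

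Signs turned with spike-in scaling for Thy1 against MH in miR-3549 (-1.17), miR-3594-3p (-1.53), miR-3584-3p (-1.76), miR-6317 (-1.71) and miR-3577 (-1.95). For SH against MH they turned in miR-3594-3p (-1.06), miR-3594-5p (-1.31), miR-3068-5p (-1.11), miR-3549 (-1.45), miR-3577 (-1.80) and miR-3473 (-2.80), and for MSC against MH in miR-3473 (-1.32), miR-3068-5p (-1.90), miR-6215 (-1.82) and miR-3549 (-1.91). In the authors' values they turned in miR-3594-3p (-0.34), miR-3584-3p (-0.62), miR-6317 (-0.05) and miR-3577 (-1.01) for Thy1 against MH, in miR-3594-5p (-0.12), miR-3577 (-0.65) and miR-3473 (-1.68) for SH against MH, and in miR-3068-5p (-0.63), miR-6215 (-0.38) and miR-3549 (-0.32) for MSC against MH. After median scaling they turned in miR-3562 (0.05, Thy1 against MH), miR-6317 (-0.17) and miR-3558-5p (-0.04, both Thy1 against MSC), miR-6317 (0.25) and miR-3562 (0.11, both MSC against SH), and miR-3558-5p (0.05) and miR-3560 (0.02, both MSC against MH).

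With the replicate number as a block the counts were 2 (Thy1 against SH), 11 (Thy1 against MH), 18 (SH against MH), 15 (Thy1 against MSC), 11 (MSC against SH) and 20 (MSC against MH). Of all tested probes, 18.1%, 32.4%, 34.2%, 26.7%, 29.3% and 37.3% were then called in either direction, in the same order. Correlations of same-numbered arrays ran from -0.04 to 0.48 (Thy1 against SH), -0.21 to 0.44 (SH against MH), -0.10 to 0.11 (Thy1 against MSC), -0.05 to 0.19 (MSC against SH) and -0.31 to 0.27 (MSC against MH), with at least 1 pair in each not over 0.1. Whether the numbers pair these arrays is not known. A slide or scan block was not run. Few members were above the brightest spot without a probe on every array, which limits what their signal can show.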
